A study of Triticum aestivum with 24 samples.

Results

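Hmgb3 is the wheat gene of a high mobility group protein. It was chosen with its levels in all 8 groups of the study already known, and its members are 1 probe set given with the choice and any other probe set annotated to the same gene. The array's annotation gives both under the symbol LOC543333, for which RefSeq lists Hmgb3 as a synonym. Hmgb3 was 1 of 771 annotated genes, and 2 of the 1273 probe sets with 1 annotated gene carried it, called the dimmer and the brighter Hmgb3 probe set here, of which the dimmer is the one given with the choice. The groups were sheaths of the wheat lines Molly and Newton with Hessian fly larvae, taken 6, 12 and 24 h after the eggs hatched, and sheaths of each line without larvae, taken at 12 h only. Molly has the resistance gene H13 and is incompatible with the larvae, while Newton is a susceptible, compatible host. Each of these 8 groups had 3 arrays, and each array held total RNA from a short piece of the second leaf sheath where the larvae feed, of seedlings infested at the stage of 2 leaves. The labels call the infested samples biological replicates but do not say how many plants went into an array, and for the uninfested samples nothing says that they came from separate plants, so p-values measure the spread between these samples, which may be partly technical.

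High mobility group proteins of the B class are small, abundant chromatin proteins. Their HMG box binds the minor groove of DNA with little regard to sequence and bends it, and they bind nucleosomes only briefly, which opens chromatin to other factors. The core histones H2A and H2B are the spool proteins of the nucleosome and are made mostly while cells copy their DNA. In Hessian fly attack, the feeding site of a susceptible seedling turns into tissue that nourishes the larvae and growth is stunted, while larvae on a resistant seedling die.

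Signals are MAS5 values on a linear scale, as the authors deposited them. Both Hmgb3 probe sets were among the brightest on the array. The dimmer probe set averaged 8722 signal units over the 24 arrays, brighter than 98.2% of the 61179 wheat probe sets, and the brighter one averaged 15950, brighter than 99.4%. The lowest Hmgb3 value on any array was 4630, against at most 85 for the 8 tag controls, which match no wheat transcript, and the brightest wheat probe set on any array reached 39011. The ending x_at marks probe sets with probes that are also found in other transcripts, and bread wheat holds near-identical copies of most genes in its subgenomes, so neither probe set can be tied to 1 gene copy.

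Hmgb3 was highest without larvae and lower in infested sheaths of both lines, with the lowest level at 6 h in Molly and at 24 h in Newton. In infested Molly, the dimmer probe set gave 6207, 6007 and 6153 at 6 h, 9453, 8973 and 9372 at 12 h, and 7409, 8388 and 9304 at 24 h, against 12515, 12883 and 12883 in uninfested Molly. All 9 infested arrays lay below the 3 uninfested ones. In infested Newton the same probe set gave 7521, 7044 and 5911 at 6 h, 9064, 7278 and 12751 at 12 h, and 5087, 4630 and 4851 at 24 h, against 12566, 10845 and 12229 in uninfested Newton. There 8 of 9 infested arrays lay below the uninfested ones, and replicate 3 at 12 h lay above them all. Both probe sets are drawn in the plot of signal by array.

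**Figure D1:**
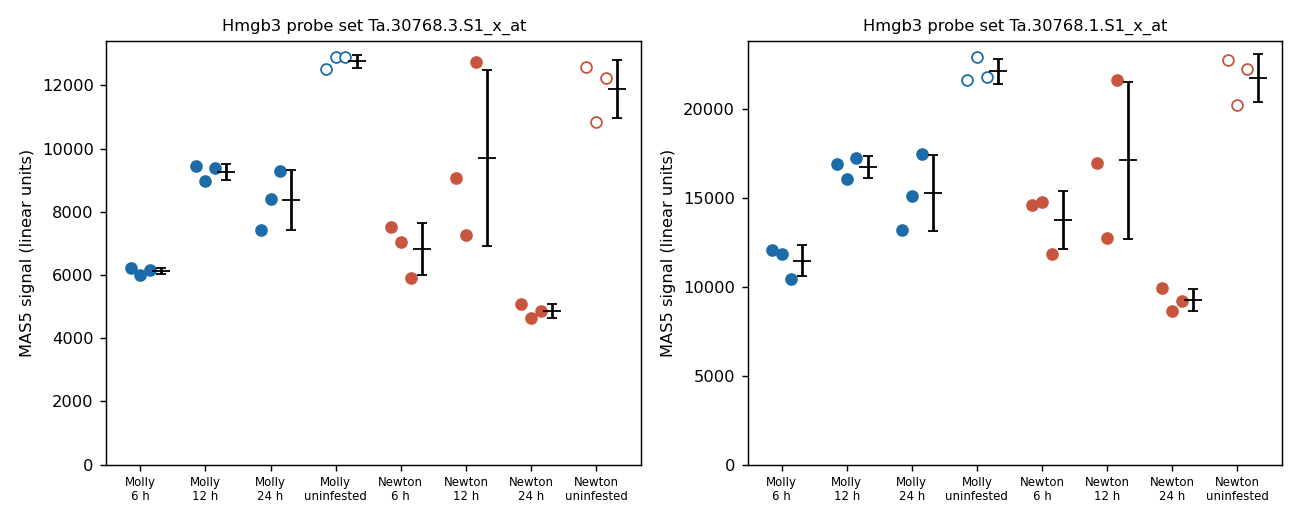
Signal of the dimmer (left) and the brighter (right) Hmgb3 probe set on 24 arrays, in linear MAS5 units from 0. Points are arrays, filled for infested and open for uninfested sheaths, blue for Molly and red for Newton, and the black bar beside each group is its mean ± SD (n = 3). The lowest group is Newton at 24 h, at 4856 ± 229 on the left and 9271 ± 636 on the right.

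The brighter probe set ordered the groups in the same way. It gave 12100, 11855 and 10476 in Molly at 6 h, 16925, 16085 and 17291 at 12 h, and 13215, 15124 and 17507 at 24 h, against 21667, 22958 and 21826 in uninfested Molly. In Newton it gave 14610, 14774 and 11868 at 6 h, 17010, 12743 and 21631 at 12 h, and 9943, 8678 and 9192 at 24 h, against 22760, 20247 and 22306 in uninfested Newton. Again 1 infested array, Newton 12 h replicate 3, lay within the range of its uninfested group. The brighter probe set was 1.69 to 2.1 times as bright as the other on every array, with a median of 1.83. The departures of single arrays from their group means also ran together in both, with r = 0.945 over 24 arrays, a description of probe sets that share arrays and partly sequence.

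A further probe set has the same cluster number in its ID but no gene in the annotation used here, so it is not counted with Hmgb3. Of 36705 tested probe sets other than the Hmgb3 ones, it was the one whose 8 group means followed the dimmer probe set most closely (r = 0.993 of log2 signal). It averaged 5052 ± 327 in Molly at 6 h, against 9982 ± 176 in uninfested Molly, and 4275 ± 364 in Newton at 24 h, against 9313 ± 327 in uninfested Newton (SD, n = 3 each). In Newton at 12 h it averaged 7190 ± 1354 (SD, n = 3). All 3 arrays there lay below the uninfested ones, while in both Hmgb3 probe sets 1 array did not.

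From the highest mean to the lowest, both Hmgb3 probe sets placed uninfested Molly, uninfested Newton, Newton at 12 h, Molly at 12 h, Molly at 24 h, Newton at 6 h, Molly at 6 h and Newton at 24 h. For the dimmer probe set these means were 12760 ± 213, 11880 ± 912, 9698 ± 2791, 9266 ± 257, 8367 ± 948, 6825 ± 827, 6122 ± 104 and 4856 ± 229 (SD, n = 3 each). Neighbours in this order overlapped array by array except at its lower end, where the 3 arrays of Newton at 24 h lay below the 3 of Molly at 6 h in both probe sets. The gap of 1266 units there exceeded the larger SD of the pair, 229, in the dimmer probe set. The gap of 1542 units between Molly at 24 h and Newton at 6 h also exceeded the larger SD, 948, although their arrays overlapped.

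How each line answered the larvae was the study's stated comparison. The differences given here are fitted log2 differences of group means from limma over all 36707 tested probe sets. For Hmgb3 they describe the pattern by which the gene was chosen, and no test is read from them. In Molly, the dimmer probe set was lower in infested than in uninfested sheaths by a log2 difference of -1.06 (SE 0.13) at 6 h, a 2.08-fold lower signal. The difference was -0.46 (SE 0.13) at 12 h, the time at which the uninfested sheaths were taken, and -0.61 (SE 0.13) at 24 h. The brighter probe set gave -0.95, -0.4 and -0.54 at 6, 12 and 24 h. In both probe sets no infested Molly array reached the uninfested range at any of these times.

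In Newton, the dimmer probe set differed by -0.8 (SE 0.13) at 6 h and by -1.29 (SE 0.13) at 24 h, a 2.44-fold lower signal. At 12 h the difference was -0.33 (SE 0.13, 95% interval -0.61 to -0.05) and the arrays overlapped. It was -0.55 without Newton 12 h replicate 3 and -0.14 without Newton 12 h replicate 2, so single arrays set its size. The brighter probe set gave -0.67, -0.38 and -1.23 at 6, 12 and 24 h. The dimmer probe set was further below the uninfested level than the brighter probe set in 5 of the 6 comparisons, Newton at 12 h being the other. The plot of infested minus uninfested differences shows these values with their intervals.

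At an adjusted p under 0.05, the fit called both Hmgb3 probe sets lower in 5 of the 6 comparisons and neither in Newton at 12 h, where 7.76% of all tested probe sets were called lower. In the other comparisons the share of all probe sets called lower was 19.5% in Molly at 6 h, 17.7% at 12 h and 12.1% at 24 h, and 6.53% in Newton at 6 h and 13.8% at 24 h. Since the gene was chosen on these contrasts, nothing is read from its calls. Of all tested probe sets, 4.71% had a more negative difference than the dimmer probe set in Molly at 6 h, 18.7% in Molly at 12 h and 3.9% in Newton at 24 h. The median over all tested probe sets lay between -0.018 and 0.069 in these 6 comparisons. Centring each array on its median in place of the deposited scaling moved every difference by -0.25 in Molly at 6 h, -0.16 at 12 h and -0.14 at 24 h, and by at most -0.06 in Newton. With it 74.3% of all calls in Molly at 6 h were lower, against 51.6% as deposited, 69% against 51.9% at 12 h and 70.8% against 50.5% at 24 h, and in Newton at 6 h 56.8% against 43.1%. Hmgb3 was lower in all 6 comparisons under both scalings. The same 3 uninfested arrays stand against all 3 times of a line, so the differences of a line are not independent, and at 6 and 24 h plant age and time of day cannot be told apart from infestation. In RNA of whole sheath pieces, fewer cells that make a transcript and less of it per cell cannot be told apart.

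**Figure D2:**
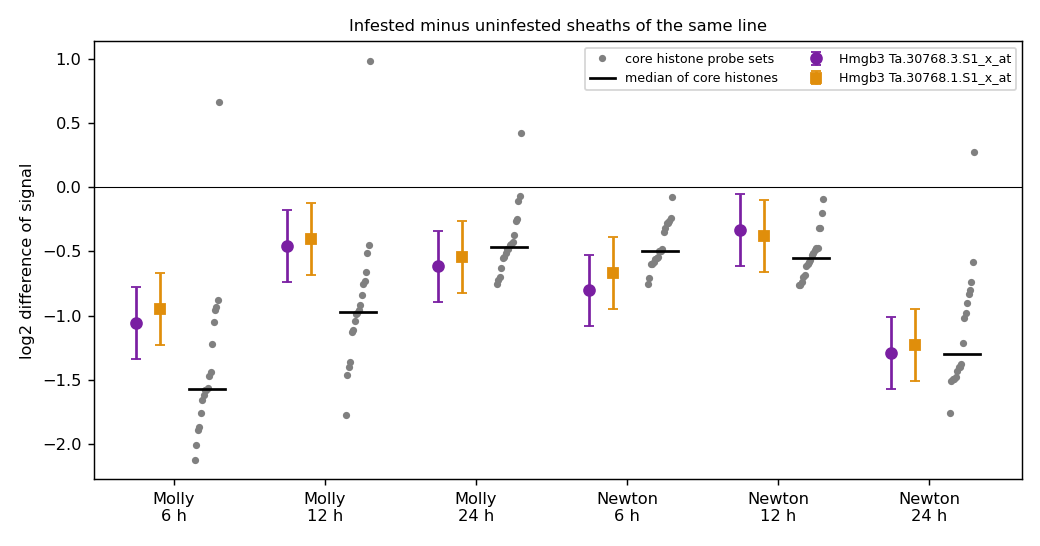
Fitted log2 difference of infested minus uninfested sheaths for each line and time. Purple circles and orange squares are the Hmgb3 probe sets with 95% intervals, grey points are the 18 core histone probe sets and black bars are their medians. Hmgb3 lies below 0 throughout, from -0.33 in Newton at 12 h to -1.29 in Newton at 24 h for the dimmer probe set.

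Between times, the step without overlap between arrays came early in Molly and late in Newton. In Molly, the dimmer probe set was higher at 12 h than at 6 h by 0.6 (SE 0.13) with no overlap between the arrays, and the step from 12 to 24 h was -0.15 (SE 0.13) with overlap. In Newton the step from 6 to 12 h was 0.48 (SE 0.13) with overlap, and the step from 12 to 24 h was -0.96 (SE 0.13) with no overlap. Both probe sets were called higher at the first of these steps in Molly, where 2.8% of all tested probe sets were called higher, and both were called lower at the step from 12 to 24 h in Newton, where 6.33% were called lower. These calls too concern the pattern the gene was chosen for.

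Without larvae, the lines differed in Hmgb3 by less than the spread between arrays. Uninfested Molly minus uninfested Newton was 0.11 (95% interval -0.17 to 0.38) for the dimmer probe set and 0.03 (-0.25 to 0.31) for the brighter probe set, and the arrays overlapped. The first of these was 0.15 without Newton uninfested replicate 1 and 0.04 without Newton uninfested replicate 2. With larvae at 24 h, the dimmer probe set gave 8367 ± 948 in Molly and 4856 ± 229 in Newton (SD, n = 3 each), and the arrays did not overlap. The difference of responses, Molly minus Newton, was 0.67 (SE 0.19, 95% interval 0.28 to 1.07) at 24 h, and 0.69 (SE 0.19) for the brighter probe set. It was -0.26 (95% interval -0.65 to 0.14) at 6 h. At 12 h it was -0.13 (-0.53 to 0.26), or 0.08 without Newton 12 h replicate 3 and -0.32 without Newton 12 h replicate 2. Both probe sets were called higher at 24 h, as were 8.36% of all tested probe sets, and neither at 6 or 12 h, where 23.4% and 25.1% were called in either direction. The gene was chosen with its levels in all 8 groups known, so nothing is read from these calls either.

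**Figure D3:**
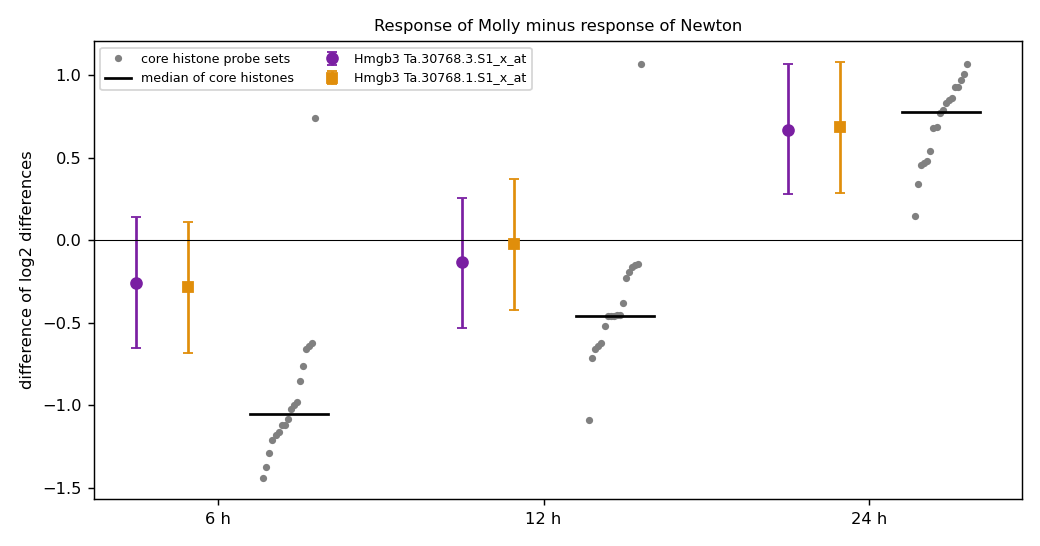
Response of Molly minus response of Newton (difference of the log2 differences of infested and uninfested sheaths) at 6, 12 and 24 h. Symbols are as in the plot of infested minus uninfested differences. Hmgb3 lies near -0.26 at 6 h and 0.67 at 24 h, and 17 of 18 core histone probe sets lie below the dimmer Hmgb3 probe set at 6 h.

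Gene symbols and RefSeq synonyms were searched for other high mobility group proteins, chromatin modifiers and chaperones, and DNA replication or cell cycle genes. None matched, but gene descriptions were not searched, so such genes may be on the array. Of Hmgb3's partners only core histones were set beside it, 5 genes with 18 probe sets, all tested. They too were chosen with results of these arrays known, so their counts and p-values describe a pattern already seen and are no independent evidence of it. In counts of probe sets, fell and rose mean called lower and called higher at an adjusted p under 0.05. In Molly at 6 h, 17 of the 18 fell and 1 rose, where 19.5% of all probe sets fell and 18.3% rose. Their median log2 difference was -1.57, against 0.02 for all tested probe sets and -1.06 for the dimmer Hmgb3 probe set. The histone H2A gene wcH2A-9 fell by 2.12 on the log2 scale (SE 0.32, limma adjusted p = 2.2e-05), to 2312 ± 297 in infested Molly, against 9986 ± 125 in uninfested Molly. The H2B gene wcH2B-8 fell by 2.01 (SE 0.35, limma adjusted p = 9.4e-05), to 470 ± 43.9 in infested Molly, against 1884 ± 99.3 in uninfested Molly (SD, n = 3 each). These are the largest changes among several probe sets of each gene. All wcH2A-9 and wcH2B-8 probe sets fell at that time, and the probe set that rose was 1 of the 2 of wcH2A-3, a dim one with a mean signal of 183, which was not called higher with quantile normalization or with arrays centred on their median.

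At later times the histones and Hmgb3 had these values. In Molly at 12 h 17 histone probe sets fell and 1 rose, where 17.7% of all probe sets fell and 16.4% rose. Their median was -0.97, against -0.46 for the dimmer Hmgb3 probe set. In Molly at 24 h 1 of 18 was called lower, as were 12.1% of all probe sets, although 17 of the 18 had differences below 0. At an unadjusted p under 0.05, 8 were lower, as were 17.8% of all tested probe sets. Their median was -0.47, against -0.61 for the dimmer Hmgb3 probe set. The count called lower was 7 without Molly 24 h replicate 3 and 0 without Molly 24 h replicate 1 or any 1 of the uninfested Molly arrays. In Newton at 24 h 17 of 18 fell, with a median of -1.3, against -1.29 for the dimmer Hmgb3 probe set, where 13.8% of all probe sets fell.

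In Newton at 6 h 0 of the 18 histone probe sets were called lower by limma, and 7 were lower at an unadjusted p under 0.05, as were 11.7% of all tested probe sets. Their median was -0.5, while the dimmer Hmgb3 probe set, at -0.8, lay below every one of them. The count was 1 without Newton 6 h replicate 2. The named wcH2A-9 probe set had a log2 difference of -0.75 there (SE 0.32, limma adjusted p = 0.12). In Newton at 12 h 2 of 18 were called lower, as were 7.76% of all probe sets, although all 18 had differences below 0, with a median of -0.55. At an unadjusted p under 0.05, 10 were lower, as were 12.5% of all tested probe sets. The count called lower was 16 without Newton 12 h replicate 3, and 0 without Newton 12 h replicate 1 or 2 or any 1 of the uninfested Newton arrays. Whether Hmgb3 and the histones differ in these changes was not tested.

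The lines' responses were set against each other for the histones too. At 6 h 15 of 18 histone probe sets had a lower response in Molly than in Newton, where 12.7% of all probe sets did, with a median difference of -1.05, against -0.26 for the dimmer Hmgb3 probe set. Single arrays moved that count. It was 2 without Newton 6 h replicate 2 or Molly 6 h replicate 2, 3 without Newton 6 h replicate 1, 4 without Newton uninfested replicate 2, 6 without either Molly uninfested replicate 1 or Molly 6 h replicate 3, 7 without Newton uninfested replicate 3 or Molly uninfested replicate 3 and 8 without Molly uninfested replicate 2. At 24 h 0 of 18 were called by limma, while 11 were higher at an unadjusted p under 0.05, as were 13.5% of all tested probe sets. With quantile normalization 6 were called higher, as were 7.83% of all tested probe sets. Their median was 0.78, against 0.67 for the dimmer Hmgb3 probe set, and their SEs were from 0.2 to 0.49, against 0.19 for the dimmer Hmgb3 probe set.

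Hmgb3 and the summed signal of the 18 histone probe sets ran in the same order over the arrays of some groups, among them Molly at 24 h and Newton at 12 h. The sum was 138533, 205422 and 237322 on the Molly 24 h arrays, whose Hmgb3 values were 7409, 8388 and 9304. It was 156741, 114507 and 228630 on the Newton 12 h arrays, whose Hmgb3 values were 9064, 7278 and 12751. The order was also the same in Molly at 6 and 12 h and in uninfested Newton, and it differed in the other groups. In Newton at 6 h the sum was 181475, 195023 and 129248, with Hmgb3 values of 7521, 7044 and 5911. In uninfested Molly the array lowest in Hmgb3, at 12515, had the highest sum, 253335, and in Newton at 24 h the array with the lowest sum, 95376, was not the lowest in Hmgb3. On the log2 scale r was 0.88 over the 24 arrays' departures from their group means and 0.851 over the 8 group means, a description over arrays that share their RNA. The 3 Newton 12 h arrays, over which Hmgb3 spread most, weigh heavily in the first of these. The plot of Hmgb3 against core histones shows the single arrays.

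**Figure D4:**
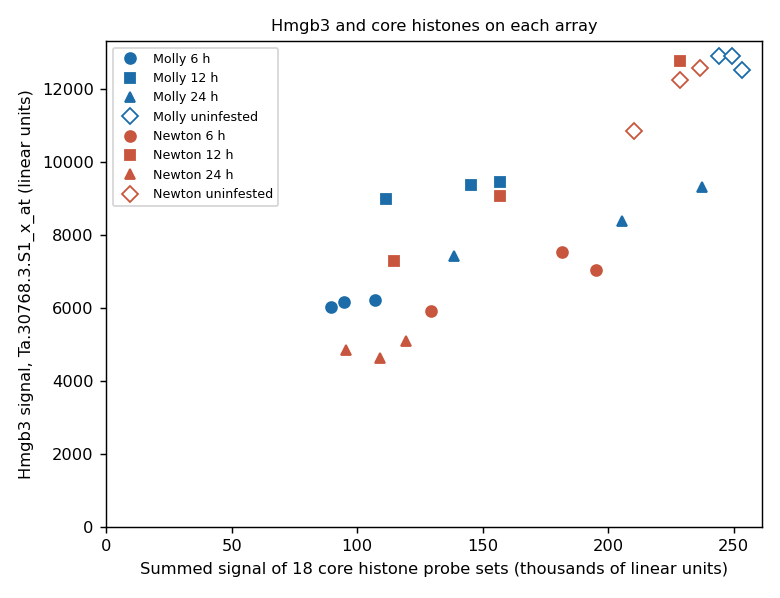
Signal of the dimmer Hmgb3 probe set against the summed signal of 18 core histone probe sets on each of 24 arrays, both linear and from 0. Colour marks the line, shape the time, and open diamonds uninfested sheaths. The uninfested arrays and Newton 12 h replicate 3 lie at the upper right, and Newton at 24 h at the lower left.

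Tubulins and genes of translation, the other lists of growing cells that the search of symbols and synonyms found, had medians nearer to 0 than Hmgb3 in Molly at 6 h and in Newton at 24 h. Of 10 tubulin probe sets 7 fell and 1 rose in Molly at 6 h, where 19.5% of all probe sets fell and 18.3% rose. The tubulin median there was -0.26. In Newton at 24 h 1 fell and 3 rose, where 13.8% of all probe sets fell and 16.6% rose, and the tubulin median was 0.13. Of 6 probe sets of ribosomal proteins and translation factors 3 fell and 1 rose in Molly at 6 h, with a median of -0.26. In Newton at 24 h 1 of them fell and 2 rose, with a median of 0.18. The same shares of all probe sets stand beside these counts, and lists this short allow no reading of small counts near them. In Molly at 6 h the beta-tubulin gene tubb2 fell by 0.49 (SE 0.12, limma adjusted p = 0.0022) and the ribosomal protein gene RPL9 by 0.64 (SE 0.14, limma adjusted p = 0.00098). Of the 2 probe sets of the alpha-tubulin gene TUBA, the dimmer one rose there by 3.24 (SE 0.52, limma adjusted p = 4.4e-05), to 2033 ± 759 in infested Molly, against 210 ± 62.5 in uninfested Molly (SD, n = 3 each). The far brighter one averaged 19192 ± 941 in infested Molly, against 21926 ± 1317 in uninfested Molly (SD, n = 3 each), a log2 difference of -0.19 (SE 0.08, limma adjusted p = 0.051). With quantile normalization 4 tubulin probe sets fell and 2 rose in Molly at 6 h, where 22.5% of all probe sets fell and 16% rose. With centred arrays 8 fell and 1 rose there, where 32.2% of all probe sets fell and 11.1% rose. In Newton at 6 h 1 of the 10 tubulin probe sets fell and 1 rose, near the shares of all probe sets, of which 6.53% fell and 8.64% rose. The dimmer TUBA probe set rose by 2 (SE 0.52, limma adjusted p = 0.012), to 471 ± 116 in infested Newton, against 117 ± 20.7 in uninfested Newton (SD, n = 3 each), and its adjusted p was 0.051 without Newton 6 h replicate 3. The brighter one had a log2 difference of -0.08 (SE 0.08, limma adjusted p = 0.54). Of the 4 probe sets of the beta-tubulin gene Tubb5, 1 fell by 0.26 (SE 0.08, limma adjusted p = 0.034), a call that 9 of 13 alternatives ended. The other 3 had log2 differences of -0.03, -0.02 and -0.02 (limma adjusted p from 0.81 to 0.9).

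Among 963 tested probe sets with another annotated gene, 640 genes in all, 5 probe sets of 4 genes had r of at least 0.9 with the dimmer Hmgb3 probe set over the 8 group means of log2 signal (0.519%, against 0.608% of all 36705 other tested probe sets). The likeness is a description over 8 means that share the arrays. The gene closest to Hmgb3 was lgul, which encodes lactoylglutathione lyase, an enzyme that clears methylglyoxal (r = 0.962, and 0.905 for its other probe set). It averaged 955 ± 182 in Molly at 6 h, against 1603 ± 159 in uninfested Molly, and 885 ± 121 in Newton at 24 h, against 1594 ± 136 in uninfested Newton (SD, n = 3 each). Next came LOC100125744, with no further name in the tables used here (r = 0.933), and wcH2A-3 (r = 0.92, but -0.507 for its dim probe set). LOC606361 followed (r = 0.906, and 0.876 for its other probe set). The fifth gene in this order was TPC1, a calcium-permeable channel gene, whose r of 0.898 lay just under 0.9.

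Within groups, the likeness held best for the histone. The departures of single arrays from their group means had r = 0.903 with Hmgb3 for wcH2A-3, 0.619 for LOC100125744, 0.449 for lgul, 0.239 for TPC1 and -0.0639 for LOC606361. In size the genes differed as well. Newton at 24 h had 5169 units of wcH2A-3, against 13661 in uninfested Newton, while TPC1 had 1213 units in Newton at 24 h, against 1477 in uninfested Newton.

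**Figure D5:**
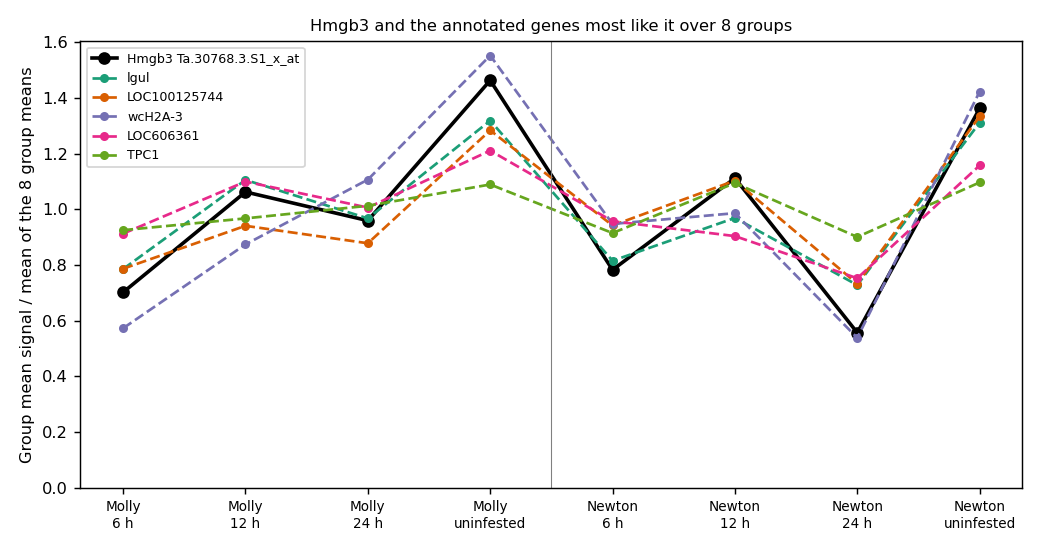
Group means of Hmgb3 (black, the dimmer probe set) and of the 5 annotated genes most like it, each divided by the mean of its own 8 group means, on a linear axis from 0. Hmgb3 and wcH2A-3 have the deepest lows, Molly at 6 h and Newton at 24 h, and TPC1 the flattest line.

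Checks of the tissue and of RNA quality bear on all these values. The green tissue markers PsbO, PsbP and PRK were bright on every array (lowest value 2726), and their summed signal ranged from 35262 to 46629 in infested Molly, against 33235 to 38450 in uninfested Molly, and from 29883 to 52700 in infested Newton, against 38642 to 43519 in uninfested Newton. Of 15 seed storage and anther probe sets, which mark tissue not sampled here, 12 had means no brighter than the highest tag control, and the summed signal of the 15 was 3904 to 5649 over infested arrays and 4800 to 5226 over uninfested ones. Most of that sum came from 1 probe set of ALP, with a mean of 4431. The wheat 18S rRNA control was lower with larvae, like Hmgb3, with group means of 1534 to 2796 in infested Molly, against 5269 in uninfested Molly, and of 1548 to 2444 in infested Newton, against 6581 in uninfested Newton. The log2 ratio of 3' to 5' actin control signal averaged 1.19 ± 1.42 in Newton at 6 h, -0.05 ± 0.32 at 12 h and 0.97 ± 0.1 at 24 h, against -0.08 ± 0.48 in uninfested Newton (SD, n = 3 each). In infested Molly it averaged from -0.41 to -0.05, against -0.16 in uninfested Molly. The same ratio of GAPDH averaged from -2.07 to -1.58 in infested Newton, against -2.43 in uninfested Newton, and from -2.58 to -2.06 in infested Molly, against -1.87 in uninfested Molly. That of ef1a averaged from -2.05 to -0.79 in infested Newton, against -1.23 in uninfested Newton, and from -1.48 to -0.35 in infested Molly, against -2.37 in uninfested Molly. The part of these ratios in the Hmgb3 differences was not tested. With 18S rRNA signal as a covariate the Hmgb3 difference was -1.16 in Molly at 6 h and -1.44 in Newton at 24 h, further from 0 than without it, as in all 6 comparisons, and within groups Hmgb3 and 18S rRNA departures had r = -0.201. That fit takes its 18S rRNA slope from within groups, while infested and uninfested sheaths differed in 18S rRNA by -0.97 to -2.1 on the log2 scale. The part of 18S rRNA in the Hmgb3 differences was not tested.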

How the data were processed

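Total RNA of 24 samples was hybridised to Affymetrix wheat arrays, 1 array a sample. The authors deposited linear signal intensity values, computed with MAS5 per the submitters' processing notes. Every array had the same trimmed mean of 500 (2nd to 98th percentile), so they were already scaled. The version of MAS5 is not given in the sources used here. Of 61290 probe sets 111 controls were left out, and the dimmest 40% of the other 61179 by mean log2 signal were not tested. The 36707 left were fitted with limma 3.58.1 in R 4.3.3 on log2 signal, with 1 mean per group and an intensity trend (16 residual and 4.49 prior degrees of freedom). Tests were two-sided, adjusted by Benjamini-Hochberg within a comparison and called at 0.05. The fit was tested on simulated data. The number of arrays, 3 per group, limits the precision.

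Hmgb3 and the lists were chosen with earlier results of these data known. No p-value of Hmgb3 is printed, and nothing is read from its calls in the fit. The p-values of list genes, from the fit over all probe sets, are not independent evidence. Lists of genes were matched by symbol or RefSeq synonym among 1273 probe sets with 1 annotated gene, and gene descriptions were not searched. 59906 probe sets had none. RefSeq held 770 of the 771 genes, and its synonyms for them served for matching and naming. From each list, at most 2 called members with the largest log2 difference and 1 not called were eligible to be named, in the comparisons at 6 h. The genes most like Hmgb3 were the 5 with the highest correlation over group means, 1 probe set each. No sequence is printed and no genome coordinates are given, since the files name no build. Replicate numbers did not pair the samples. Alternatives were quantile normalization, centring on array medians, a pseudocount of 16, no filter, no intensity trend, a replicate block, 18S rRNA as a covariate and leaving out each array.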

Additional observations from a re-analysis of the deposited data

Results flagged for a closer look

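Several results differed between the lines' responses to larvae, taken as Molly minus Newton on the log2 scale. Hmgb3 differed at 24 h by 0.67 in the dimmer probe set and by 0.69 in the brighter one, a description of the pattern for which the gene was chosen. At 6 h the response of wcH2A-9 differed by -1.37 (limma adjusted p = 0.032) and that of wcH2B-8 by -1.44 (limma adjusted p = 0.037), and these calls were lost in 10 and 11 of 19 alternatives, with adjusted p from 0.013 to 0.088 and from 0.016 to 0.11. The ribosomal protein gene RPS29 differed by 2.32 at 6 h (limma adjusted p = 0.0037) and by 1.99 at 12 h (limma adjusted p = 0.0093) in 1 of its probe sets, and no alternative ended these calls (adjusted p from 0.00074 to 0.013 and from 0.0058 to 0.029). The uninfested signal of that probe set lay within the range of the tag controls in both lines, so these sizes are uncertain. In Molly at 6 h it was at least 6.18-fold higher with larvae than without, set against the brightest tag control, a bound that was not tested. It averaged 532 ± 101 in infested Molly and 70.3 ± 10.9 in uninfested Molly (SD, n = 3 each). The fitted log2 difference of these 2 groups was 2.91 (SE 0.38, limma adjusted p = 4.7e-06). The other RPS29 probe set differed by 0.21 at 6 h (limma adjusted p = 0.82) and by -0.6 at 12 h (limma adjusted p = 0.42). Tubb4 differed by 0.43 at 24 h (limma adjusted p = 0.038), a call lost in 11 of 19 alternatives, with adjusted p from 0.016 to 0.14. Groups of 3 arrays were not screened for outlying samples.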

How the results depend on the processing

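The Hmgb3 differences kept their sign and moved by less than the spread between replicates with quantile normalization, a pseudocount of 16, 18S rRNA as a covariate and the replicate block, which left Molly at 6 h at -1.06. Centring on array medians moved Molly at 6 h to -1.31 and the difference of responses at 6 h to -0.45. Replicate numbers did not pair the samples: deviations of same-numbered samples had correlations from -0.113 to 0.057 over 18 pairs. Core histones called lower in Newton at 12 h, 2 as reported, were 0 with quantile normalization, no filter, no intensity trend, the replicate block or the 18S covariate. In Molly at 24 h, 1 as reported, they were 8 with centred arrays and 0 with no trend or the 18S covariate, and in Newton at 6 h 1 with centred arrays. Of all tested probe sets 20.1% were called lower in Molly at 24 h with centred arrays, against 12.1% as reported. The 15 with a lower response in Molly at 6 h, whose alternatives were added after seeing the data, as were those of the named list genes, were 7 with no trend and 8 with the 18S covariate. With the 18S covariate all calls were 6833 in Molly at 12 h, and in Newton 1865 at 6 h, 3540 at 12 h and 5685 at 24 h, against 12514, 5570, 6820 and 11167. With centred arrays 73.9%, 67.1% and 63.2% of calls in the differences of responses at 6, 12 and 24 h were lower, against 54.5%, 54.5% and 51.8%, and between uninfested lines 46% against 59.7%. Tubb4 in Molly at 6 h reversed to -0.07 with centred arrays, against 0.19. Leaving out 1 array at a time gave Hmgb3 from -0.55 to -0.14 in Newton at 12 h and from -0.32 to 0.08 for the difference of responses at 12 h, the ends being without Newton 12 h replicates 3 and 2. It gave from 0 to 7 core histones called lower in Molly at 24 h, 0 to 16 in Newton at 12 h, 0 to 1 in Newton at 6 h and 2 to 16 for the difference of responses at 6 h. All calls ranged from 4496 to 7790 in Newton at 12 h, and from 340 to 881 between uninfested lines, against 1247.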
